A study of Mus musculus with 5 samples.

Results

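The nuclear genes for the subunits of the 5 oxidative phosphorylation complexes were followed in cultured mouse epidermal stem cells that lacked Angptl4 and in wild-type cells. Members were chosen by symbol alone, as rows named Ndufa, Ndufb, Ndufc, Ndufs or Ndufv with a number, Sdha to Sdhd, or with names that begin with Uqcr, Cox4 to Cox8 or Atp5. The rule found 82 of the 17657 genes in the table: 38 of complex I, 4 of complex II, 8 of complex III, 15 of complex IV and 17 of complex V. RNA-seq was made from 5 libraries, 2 of Angptl4 knockout cells (KO1 and KO2) and 3 of wild-type cells (WT1, WT2 and WT3). All cells came from the skin of male C57BL/6 mice, with a time of 8 weeks in the labels, and were grown in KGM2, a keratinocyte growth medium. The labels give neither the deleted part of the Angptl4 allele nor the number of mice, and do not say that the libraries came from separate mice or cultures. The p-values below therefore measure the spread between these libraries, which may be technical.

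Complexes I to IV pass electrons from NADH and succinate to oxygen. Of these, complexes I, III and IV pump protons across the inner mitochondrial membrane. Complex V, the ATP synthase, uses the returning protons to make ATP. Most subunits are encoded in the nucleus and imported, and a few are encoded by mitochondrial DNA, whose genes are not used here because the table lists 0 of them. Several subunits of complex IV have a widely used form and a second form known from muscle, lung or testis, and Ndufa4 has a relative, Ndufa4l2, known as a gene induced in hypoxia. Angptl4, the deleted gene, encodes a secreted protein that inhibits lipoprotein lipase.

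Angptl4 itself stood at 0.86 and 1.11 TPM in KO1 and KO2, against 7.34, 6.09 and 4.34 TPM in WT1, WT2 and WT3 (TPM are read levels scaled by transcript length and library). It was lower in both KO libraries (log2 change -2.56 ± 0.32 SE, adjusted p = 0.00458). The libraries held 20283084 to 20773407 expected counts, the read counts that RSEM assigns to each gene. The KO libraries differed from each other far more than the WT libraries did, with a coefficient of variation between replicates of 28.8% in KO and 5.22% in WT. The second principal component, with 18.7% of the variance, separated KO1 from KO2. The basal keratinocyte markers, 12 of 12 of them past the count filter, summed to 62890 and 49440 CPM, counts scaled to library totals, in KO1 and KO2, against 47980 to 48750 CPM in the WT libraries. Of these 12, 4 were higher in KO and 2 were lower, Itga6 at 666.5 and 613.5 CPM in KO1 and KO2, against 1125 to 1278 CPM in WT, and Trp63 at 336.3 and 293.3 CPM in KO1 and KO2, against 504.7 to 529.6 CPM in WT. Of all genes past the count filter, 20.4% were higher in KO and 20.4% were lower. Of 10 smooth muscle and pericyte markers 7 passed the filter and 6 were higher in KO. The list, led by the actin gene Acta2, summed to 2243 and 929.2 CPM in KO1 and KO2, against 364.9 to 412.4 CPM in WT. Of 13 fibroblast markers 11 passed the filter and 5 were higher in KO. The list summed to 781.7 and 379.5 CPM in KO1 and KO2, against 468.2 to 482.6 CPM in WT. Most of this sum was Fbln2, at 565.9 and 275 CPM in KO1 and KO2, against 382.7 to 403.1 CPM in WT. In KO2 only Fbln2 and Fbln1 lay below every WT library. Some markers, such as Postn, Pdgfrb, Dcn and Cspg4, were near 0 in WT and passed the filter through their KO libraries. For these, passing the filter and standing higher in KO are not separate results. In bulk RNA, fewer cells of a type and less RNA per cell cannot be told apart, and the part of these markers in the results below was not tested.

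Of the 82 subunit genes, 79 passed the count filter and were tested with all other genes by edgeR's quasi-likelihood test with Benjamini-Hochberg adjustment. At an adjusted p under 0.05, 6 were higher in KO cells, 10 were lower and 63 were not called. Among all 12957 tested genes 20.4% were higher and 20.4% were lower, or 40.8% in either direction, where 20.3% of the tested subunit genes were called. The members' median log2 change was -0.15, against 0.02 for all tested genes. Their median change in either direction was 0.22 on the log2 scale, against 0.39 for all genes. Of the 79, 52 lay within 1.2-fold of WT, as did 35.3% of all genes, and 3 changed at least 2-fold, as did 17.1% of all genes. These 3 were Ndufa4l2, Cox6b2 and Cox7a2l, all higher in KO. Of these, Cox6b2 has few counts and passed the count filter through its KO libraries.

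The calls depended on which libraries entered the fit. Without KO1, 8 members were higher and 56 lower (29.3% and 30.5% of all genes), and without KO2, 20 were higher and 17 lower (30% and 30.9% of all genes). Without WT1, 3 were higher and 1 was lower (7.62% and 7.6% of all genes). Without WT2, 3 were higher and 2 were lower (8.81% and 8.94%), and without WT3, 3 were higher and 1 was lower (8.68% and 8.77%). All 16 called members kept their direction without KO1 and without KO2. With 1 KO library left, the spread came from the WT libraries alone, which differed far less than the KO pair. A call kept there therefore tests little. Ndufa4l2, Cox7a2l, Cox6b2 and Ndufa12 kept their call without any 1 of the WT libraries. Of these, Cox6b2 passed the count filter through its KO counts. Another 11 called members lost their call without each of WT1, WT2 and WT3, and Ndufa5 lost it without WT1 and without WT3. The adjusted p of those lost calls ran between 0.0501 and 0.135. With the replicate number as a block 2 members were higher, Ndufa4l2 and Cox7a2l, and 0 were lower (6.21% and 6.13% of all genes). Under that fit, by edgeR, 5 members were higher and 8 lower at an unadjusted p under 0.05 (17.3% and 17.5% of all genes). DESeq2 called 6 higher and 12 lower (21.9% and 22.1% of all genes), limma-voom with a separate spread for each group 5 and 6 (12.5% and 12.1%), and limma on log2(TPM + 1) 5 and 14 (18.1% and 24.3%). Under limma-voom Cox5a, Ndufa13, Ndufa5, Ndufs4 and Uqcrc2 lost their call.

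**Figure D1:**
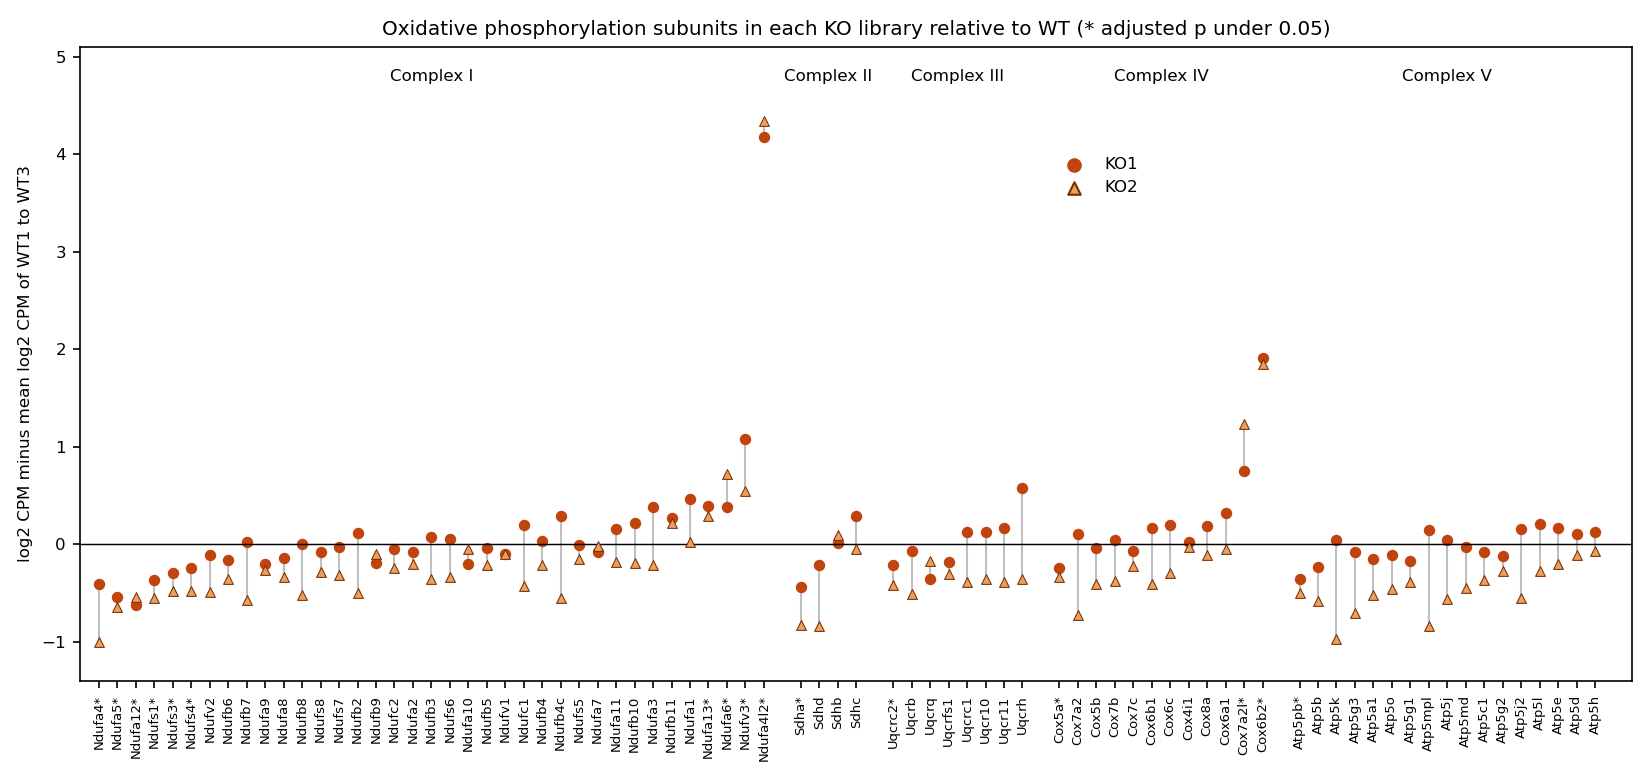
Of the 79 subunit genes that passed the count filter, 78 are placed along the x axis by complex and by its change, and the y axis gives log2 CPM minus the mean log2 CPM of the 3 WT libraries. Circles are KO1, triangles are KO2, the grey line joins them, and an asterisk marks an adjusted p under 0.05. Ndufa4l2 stands above all others, and KO2 lies below KO1 for most genes.

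Ndufa4l2 (chr10:127509274-127517154, GRCm38.p6) had the largest rise among the subunit genes. It stood at 47.7 and 53.9 TPM in KO1 and KO2, against 2.40, 2.39 and 2.70 TPM in WT1, WT2 and WT3. Both KO libraries were high, all 3 WT libraries were low, and the groups did not overlap. The fold was 20.6 (log2 change 4.36 ± 0.14 SE, adjusted p = 0.000223), from 463 and 528 counts in KO and 23, 23 and 26 counts in WT. Its exons share 32 bases with Shmt2 on the other strand, and the sources used here do not say whether the counting used strand.

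Its relative Ndufa4 went the other way. Ndufa4 carries a complex I symbol, but its protein is known as a subunit of complex IV. It stood at 414 and 275 TPM in KO1 and KO2, against 579, 566 and 537 TPM in WT1, WT2 and WT3. Both KO libraries were below every WT library, KO2 by more than KO1. The log2 change was -0.68 ± 0.18 SE (adjusted p = 0.0329), the lowest log2 change among the 79 tested members. With 1 WT library left out the adjusted p was 0.0925 to 0.109. Even so, Ndufa4 remained far above Ndufa4l2 in TPM in each KO library.

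In complex I, which oxidises NADH and hands the electrons to ubiquinone, 4 of 38 subunit genes were higher in KO, 6 were lower and 28 were not called. The calls were 26.3% of the 38 in either direction, against 40.8% of all tested genes. Without Ndufa4 and Ndufa4l2, which the symbol rule places here, 3 of 36 were higher and 5 were lower. The median log2 change was -0.13. The 7 core subunits include those that carry the flavin and the iron-sulfur clusters. Of the 7, 2 were lower, Ndufs1 and Ndufs3, and 5 were not called. Ndufs1, which holds several of the clusters, stood at 49.2 and 42.9 TPM in KO1 and KO2, against 65.1, 63.0 and 64.2 TPM in WT1, WT2 and WT3. Ndufs3, a core subunit near the ubiquinone site, stood at 134 and 118 TPM in KO1 and KO2, against 165, 170.02 and 166 TPM in WT1, WT2 and WT3. For both genes every KO library lay below every WT library. The log2 changes were -0.46 ± 0.08 SE for Ndufs1 (adjusted p = 0.01) and -0.39 ± 0.08 SE for Ndufs3 (adjusted p = 0.0163). With 1 WT library left out the adjusted p was 0.0502 to 0.0584 for Ndufs1 and 0.0705 to 0.0745 for Ndufs3. Their exons share up to 146 bases (Ndufs1) and 85 bases (Ndufs3) with genes on the other strand.

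Of the accessory genes of complex I, with Ndufa4 set aside, 3 fell. Ndufa12, an accessory subunit related to the assembly factor Ndufaf2, stood at 108 and 115 TPM in KO1 and KO2, against 168, 171 and 171 TPM in WT1, WT2 and WT3. The KO libraries were close to each other and well below the WT libraries, and the log2 change was -0.59 ± 0.07 SE (adjusted p = 0.00371). Ndufa5, a subunit of the matrix arm, stood at 61.4 and 57.6 TPM in KO1 and KO2, against 94.0, 85.0 and 94.4 TPM in WT1, WT2 and WT3. Its groups did not overlap either, and its log2 change was -0.60 ± 0.10 SE (adjusted p = 0.0086, and 0.0546 without WT1, 0.0367 without WT2 and 0.0501 without WT3). Ndufs4, whose loss in mice is used as a model of Leigh syndrome, stood at 36.8 and 31.3 TPM in KO1 and KO2, against 45.1, 44.1 and 43.4 TPM in WT1, WT2 and WT3. Both KO libraries were below WT, with a log2 change of -0.36 ± 0.10 SE (adjusted p = 0.0381, and 0.113 to 0.135 with 1 WT library left out).

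With Ndufa4l2 set aside, 3 accessory genes of complex I rose. Ndufv3, a small subunit of the NADH-oxidising module, stood at 233 and 137 TPM in KO1 and KO2, against 105, 107 and 116 TPM in WT1, WT2 and WT3. KO1 was the high library, and in TPM KO2 was only a little above WT. In CPM, scaled from the tested counts, Ndufv3 stood at 75.97 and 52.24 in KO1 and KO2, against 34.69 to 37.47 in WT. The log2 change was 0.84 ± 0.16 SE (adjusted p = 0.0139, and 0.0569 to 0.0678 with 1 WT library left out), and the call was lost in the fits on log2 TPM. Ndufa6, a LYR protein of the matrix arm that binds the acyl carrier subunit, stood at 109 and 140 TPM in KO1 and KO2, against 84.3, 83.7 and 88.6 TPM in WT1, WT2 and WT3. Here KO2 was the higher library, and the log2 change was 0.56 ± 0.12 SE (adjusted p = 0.0193, and 0.0699 to 0.084 with 1 WT library left out). Ndufa13, also known as GRIM-19, stood at 112 and 105 TPM in KO1 and KO2, against 90.8, 83.1 and 86.1 TPM in WT1, WT2 and WT3. The groups did not overlap and the log2 change was 0.34 ± 0.08 SE (adjusted p = 0.0194, and 0.0652 to 0.0873 with 1 WT library left out). Its exons share 375 bases with Tssk6 on the other strand. The 28 complex I genes that were not called include Ndufb4c, a close copy of Ndufb4 with which it may share reads.

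**Figure D2:**
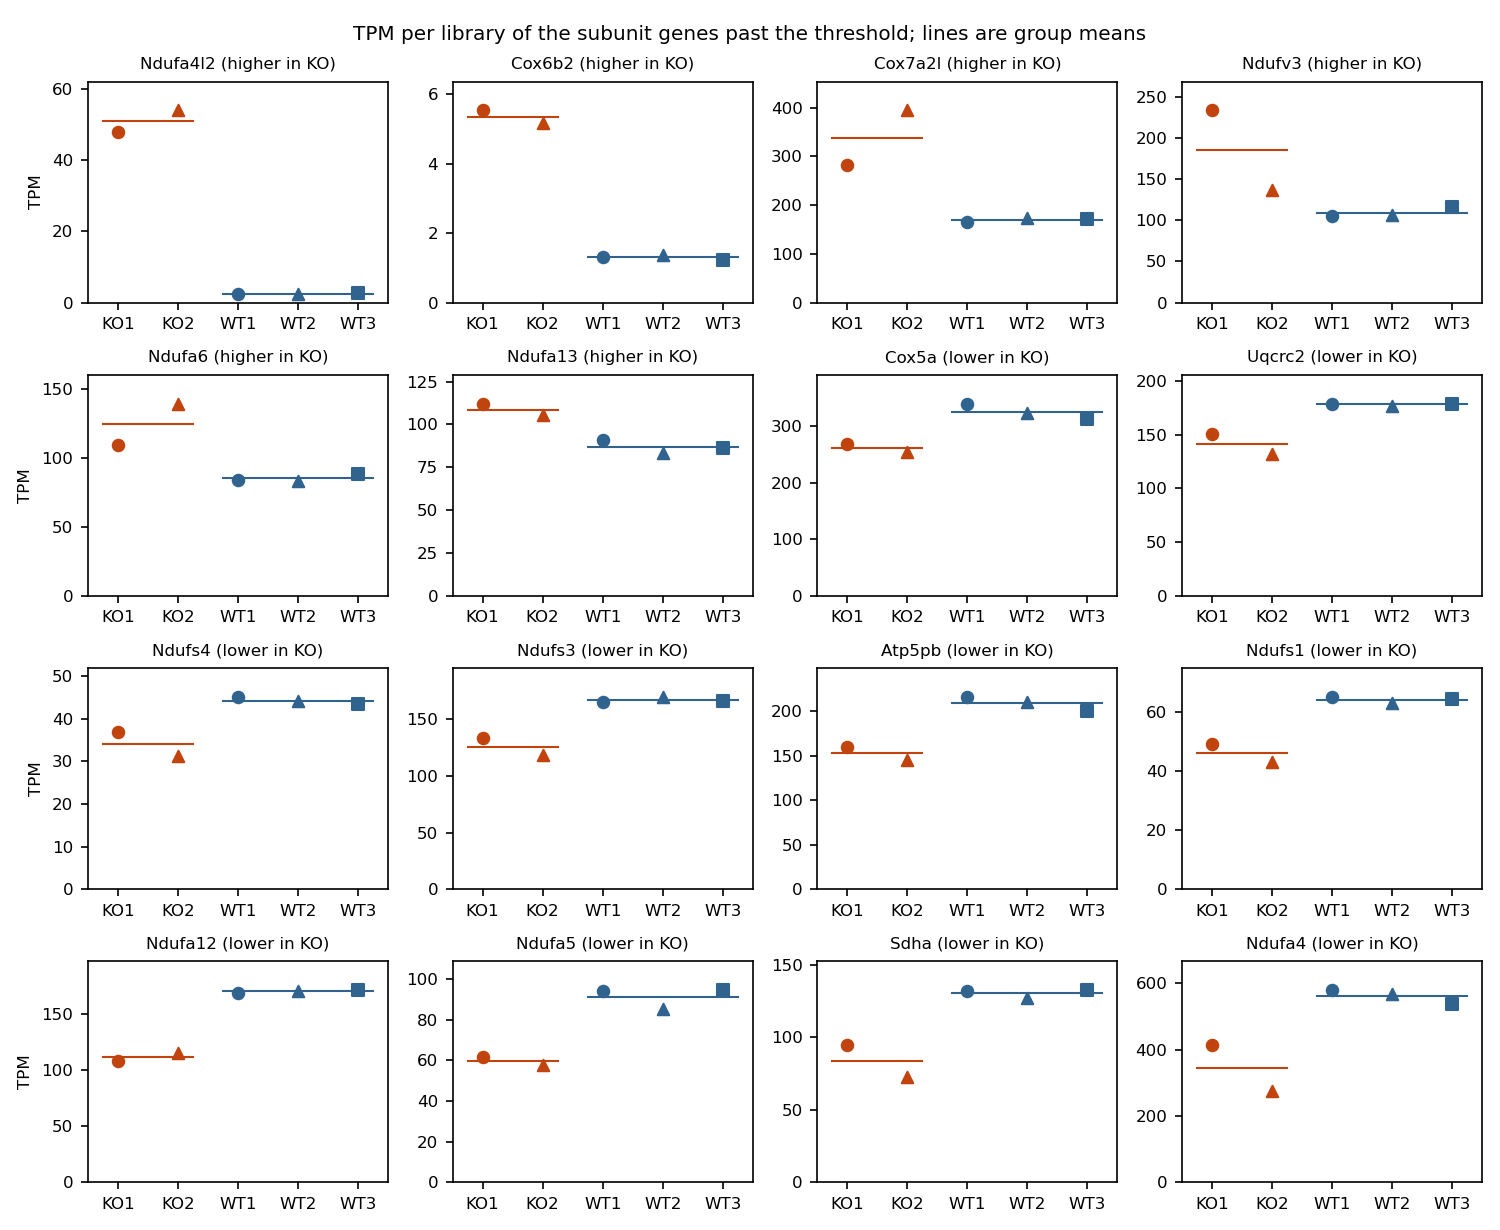
Each panel shows 1 of the 16 subunit genes with an adjusted p under 0.05, with TPM on the y axis (from 0) and the libraries KO1, KO2, WT1, WT2 and WT3 on the x axis. Points are libraries and lines are group means. For each of the 16 genes the KO and WT points do not overlap.

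Sdha was the called gene of complex II, which oxidises succinate and also belongs to the tricarboxylic acid cycle. With 4 genes tested, that is 25% called in either direction, against 40.8% of all tested genes. Sdha, the flavoprotein that binds succinate, stood at 94.8 and 72.5 TPM in KO1 and KO2, against 132, 127 and 132 TPM in WT1, WT2 and WT3. Both KO libraries were below WT, KO2 by more, and the log2 change was -0.62 ± 0.13 SE (adjusted p = 0.0167, and 0.0628 to 0.0732 with 1 WT library left out). The membrane anchor Sdhd stood at 98.3 and 63.9 TPM in KO1 and KO2, against 122, 113 and 112 TPM in WT1, WT2 and WT3, below WT in both KO libraries but not called (log2 change -0.49, adjusted p = 0.0871). Neither the iron-sulfur subunit Sdhb (log2 change 0.06, adjusted p = 0.541) nor the other anchor, Sdhc (log2 change 0.13, adjusted p = 0.406), was called. Sdhb stood at 126 and 134 TPM in KO1 and KO2, against 128, 124 and 129 TPM in WT1, WT2 and WT3. Sdhc had 184 and 146 TPM in KO1 and KO2, against 161, 153 and 146 TPM in WT1, WT2 and WT3. No complex II gene was higher by edgeR's test, also at an unadjusted p under 0.05 (0 genes), or by DESeq2 (0 genes).

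Promoters of nuclear subunit genes are known for sites of NRF1 and of ETS factors such as GABP. The 3 shown were chosen because they are the lower genes whose windows held a match, and the other 5 lower genes with an entry held none. RefSeq (GRCm38.p6) gave an entry for 66 of the 82 genes, and the 250 bases before each start were searched on both strands for the NRF1 letters (GCGCA, any base, then GCGC) and the ETS letters CCGGAAG. The bases are written 5′ to 3′ on the strand of the gene, and capitals mark the letters found, in NRF1 form for Sdha and Ndufa5 and in ETS form for Ndufs3. Sdha is at chr13:74350241-74350490 (minus strand in RefSeq, whereas the deposited table lists Sdha on the plus strand), Ndufa5 at chr6:24527691-24527940 (minus strand) and Ndufs3 at chr2:90904722-90904971 (minus strand).
Sdha: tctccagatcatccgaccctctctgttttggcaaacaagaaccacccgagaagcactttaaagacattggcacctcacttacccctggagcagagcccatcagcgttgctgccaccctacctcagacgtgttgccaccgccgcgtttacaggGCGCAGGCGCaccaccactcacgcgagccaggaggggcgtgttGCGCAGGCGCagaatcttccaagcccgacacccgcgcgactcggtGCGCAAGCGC
Ndufa5: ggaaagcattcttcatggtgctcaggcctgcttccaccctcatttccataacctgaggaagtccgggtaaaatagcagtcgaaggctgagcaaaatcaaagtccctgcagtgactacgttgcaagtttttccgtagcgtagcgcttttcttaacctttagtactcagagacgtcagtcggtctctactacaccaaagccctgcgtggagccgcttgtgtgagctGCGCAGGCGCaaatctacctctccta
Ndufs3: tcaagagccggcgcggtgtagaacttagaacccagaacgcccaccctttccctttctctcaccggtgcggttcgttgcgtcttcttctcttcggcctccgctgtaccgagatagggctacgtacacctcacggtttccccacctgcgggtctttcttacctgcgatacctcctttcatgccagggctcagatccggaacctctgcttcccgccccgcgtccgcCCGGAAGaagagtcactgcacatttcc
Sdha held 3 matches to the NRF1 letters, at 98, 55 and 10 bases before the start. Ndufa5 held 1 match at 26 bases and Ndufs3 held 1 match to the ETS letters at 27 bases. Ndufa5 has a second RefSeq start (window chr6:24527527-24527776, not shown), from which the same match lay 190 bases before. Over all members the NRF1 letters were in 13 of 66 windows (19.7%), against 9.0% of the 10357 tested genes with an entry, and the ETS letters in 12 of 66 (18.2%), against 15.4%. Of the 8 lower genes with an entry, 2 held the NRF1 letters and 1 the ETS letters, and of the 5 higher genes with an entry 0 held either. These are matches of letters, not sites.

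In complex III, which passes electrons from ubiquinol to cytochrome c, Uqcrc2 was lower in KO and the other 7 genes were not called. That is 12.5% called in either direction, against 40.8% of all tested genes. Uqcrc2, a core protein, stood at 151 and 132 TPM in KO1 and KO2, against 179, 177 and 179 TPM in WT1, WT2 and WT3. The groups did not overlap and the log2 change was -0.31 ± 0.09 SE (adjusted p = 0.0347, and 0.114 to 0.127 with 1 WT library left out), and its exons share 504 bases with Pdzd9 on the other strand. The Rieske iron-sulfur gene Uqcrfs1 stood at 117 and 108 TPM in KO1 and KO2, against 127, 138 and 141 TPM in WT1, WT2 and WT3, and was not called (log2 change -0.25, adjusted p = 0.0579). Uqcr11, the gene of complex III with the highest mean TPM, stood at 458 and 314 TPM in KO1 and KO2, against 415, 431 and 402 TPM in WT1, WT2 and WT3. KO1 was above every WT library and KO2 below, so the KO pair lay on either side of WT. Uqcrh, the hinge subunit that contacts cytochrome c1, showed a wider gap, at 287 and 151 TPM in KO1 and KO2, against 200.2, 187 and 199.7 TPM in WT1, WT2 and WT3 (log2 change 0.18, adjusted p = 0.603). No complex III gene was higher by edgeR's test, also at an unadjusted p under 0.05 (0 genes), or by DESeq2 (0 genes).

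In complex IV, cytochrome c oxidase, 2 of the 12 tested genes were higher, 1 was lower and 9 were not called. That is 25% called in either direction, against 40.8% of all tested genes, and the median log2 change was -0.06. Cox7a2l (chr17:83501917-83514333), also known as SCAF1, joins complexes III and IV into supercomplexes, and C57BL/6 mice are known to carry a shortened form of its protein. It stood at 282 and 394 TPM in KO1 and KO2, against 165, 173 and 171 TPM in WT1, WT2 and WT3. KO2 was the higher library and both KO libraries were above WT, with a fold of 2.02 (log2 change 1.01 ± 0.15 SE, adjusted p = 0.00626). Neither of its relatives was called. Cox7a2 stood at 198 and 111 TPM in KO1 and KO2, against 194, 173 and 193 TPM in WT1, WT2 and WT3 (log2 change -0.26 ± 0.24 SE, adjusted p = 0.433), and the muscle form Cox7a1 had at most 0.60 TPM in any library and was not tested.

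Cox6b2 (chr7:4751792-4753094), the testis form of subunit VIb, stood at 5.53 and 5.17 TPM in KO1 and KO2, against 1.32, 1.37 and 1.22 TPM in WT1, WT2 and WT3. The groups were far apart for its level, with 29 and 28 counts in KO and 7, 6 and 6 counts in WT, and it passed the count filter through its KO counts. The fold was 4.44 (log2 change 2.15 ± 0.28 SE, adjusted p = 0.00488). The widely used form Cox6b1 stood at 819 and 551 TPM in KO1 and KO2, against 746, 743 and 739 TPM in WT1, WT2 and WT3, so that Cox6b2 stayed a small part of the pair in TPM in every library. The male germ cell markers summed to 0.3916 and 0.6283 CPM in KO1 and KO2, against 0.1452 to 0.2436 CPM in WT, with 0 of the 2 in the table past the count filter.

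Cox5a, a subunit beside the catalytic core, was the lower gene of complex IV. It stood at 269.7 and 255 TPM in KO1 and KO2, against 340.4, 324 and 313 TPM in WT1, WT2 and WT3. The groups did not overlap, and the log2 change was -0.29 ± 0.07 SE (adjusted p = 0.0285, and 0.0811 to 0.12 with 1 WT library left out), and its exons share 145 bases with a noncoding gene on the other strand. Cox4i1, the main form of a regulatory subunit, stood at 662 and 641 TPM in KO1 and KO2, against 699.6, 653 and 631 TPM in WT1, WT2 and WT3, and its groups overlapped (log2 change -0.01 ± 0.08 SE, adjusted p = 0.958). This change was 0.01 with library totals as the scaling, so it has no direction. The lung form Cox4i2 was at most 0.14 TPM and was not tested. Cox6a1, the widely used form of subunit VIa, stood at 1071 and 829 TPM in KO1 and KO2, against 847, 859.8 and 909 TPM in WT1, WT2 and WT3. The muscle form Cox6a2 had 3 and 42 counts in KO1 and KO2, against 2, 5 and 5 counts in WT1, WT2 and WT3, which left it below the filter. That was 0.46 and 6.42 TPM in KO1 and KO2, against 0.31, 0.78 and 0.78 TPM in WT, high in KO2 alone, and its exons share 70 bases with Itgad on the other strand. Skeletal muscle markers summed to 5.433 and 4.495 CPM in KO1 and KO2, against 3.446 to 3.919 CPM in WT. Cox8a, which encodes a small membrane subunit and had the highest mean TPM of complex IV over all libraries, stood at 1004 and 822 TPM in KO1 and KO2, against 850.1, 944 and 903 TPM in WT1, WT2 and WT3, with no order between the groups.

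In complex V, the ATP synthase, Atp5pb was lower in KO and the other 16 genes were not called. That is 5.88% called in either direction, against 40.8% of all tested genes, while the median log2 change was -0.23. Atp5pb, the b subunit of the peripheral stalk that holds the head still, stood at 160.3 and 145 TPM in KO1 and KO2, against 216, 211 and 201 TPM in WT1, WT2 and WT3. Its groups did not overlap, with a log2 change of -0.43 ± 0.08 SE (adjusted p = 0.0135, and 0.0534 to 0.0731 with 1 WT library left out), and its exons share up to 190 bases with genes on the other strand, Wdr77 among them. Atp5b, the catalytic beta subunit and the most abundant of all 82 transcripts in TPM, stood at 1324 and 1046 TPM in KO1 and KO2, against 1591, 1554 and 1602 TPM in WT1, WT2 and WT3. Both KO libraries were below WT, but the log2 change of -0.40 ± 0.14 SE was not called (adjusted p = 0.0663). Subunit c, the ring that turns with the proton flow, is encoded by 3 genes for the same mature protein. Atp5g1 stood at 496 and 427 TPM in KO1 and KO2, against 557, 583 and 561 TPM in WT1, WT2 and WT3, and Atp5g2 at 492 and 447 TPM in KO1 and KO2, against 547, 549.99 and 538 TPM in WT1, WT2 and WT3. Atp5g3 stood at 425 and 276 TPM in KO1 and KO2, against 468, 437 and 459 TPM in WT1, WT2 and WT3. In each of the 3 genes KO1 and KO2 were lower than all WT libraries, and none was called, with adjusted p of 0.06, 0.0927 and 0.18. By edgeR's test 0 complex V genes were higher, as at an unadjusted p under 0.05 (0 genes) and by DESeq2 (0 genes).

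The 2 KO libraries did not give the same picture of these genes. KO2 was below KO1 for 69 of the 79 tested members (87.3%), against 49.8% of all tested genes. The members' median difference from the WT mean was 0.01 in KO1 and -0.34 in KO2, on the log2 CPM scale, and over all tested genes it was -0.01 in KO1 and 0.01 in KO2. KO2 lay below every WT library for 66 members (83.5%, against 43.6% of all genes), and KO1 for 33 (41.8%, against 44.7%). In 24 members KO1 lay above and KO2 below every WT library (30.4%, against 5.9% of all genes). The 24 include Uqcrh, Uqcr11, Cox6a1, Cox6b1, Cox7a2, Cox8a, Ndufb4c and Atp5mpl. The groups did not overlap in 8 members with KO above WT and in 32 with KO below, or 50.6%, against 66.4% of all genes. No test compares KO1 with KO2, since each is 1 library.

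The gap was seen in every complex. In complex V all 17 genes had KO2 below KO1 and below every WT library, and the median difference from WT was -0.03 in KO1 and -0.45 in KO2. For complex I this median was -0.02 in KO1 and -0.25 in KO2, and for complex II it was -0.10 in KO1 and -0.44 in KO2. For complex III it was 0.03 in KO1 and -0.37 in KO2, and for complex IV 0.13 in KO1 and -0.26 in KO2. Among the 79 tested members the widest gaps were those of Atp5k, Atp5mpl, Uqcrh, Ndufb4c and Cox7a2, all small subunits. The untested Cox6a2, with few counts, had a wider gap in the other direction. Atp5k, the e subunit of the membrane part of the ATP synthase, stood at 194 and 96.7 TPM in KO1 and KO2, against 207, 181 and 189.7 TPM in WT1, WT2 and WT3. Atp5mpl, another small ATP synthase subunit, stood at 260.4 and 132 TPM in KO1 and KO2, against 245, 235 and 241 TPM in WT1, WT2 and WT3. Ndufb4c stood at 36.3 and 20.2 TPM in KO1 and KO2, against 33.9, 29.8 and 27.1 TPM in WT1, WT2 and WT3. For Atp5mpl and Ndufb4c KO1 was above all WT libraries, and for Atp5k it lay among them. KO2 was the lowest library for all 3.

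**Figure D3:**
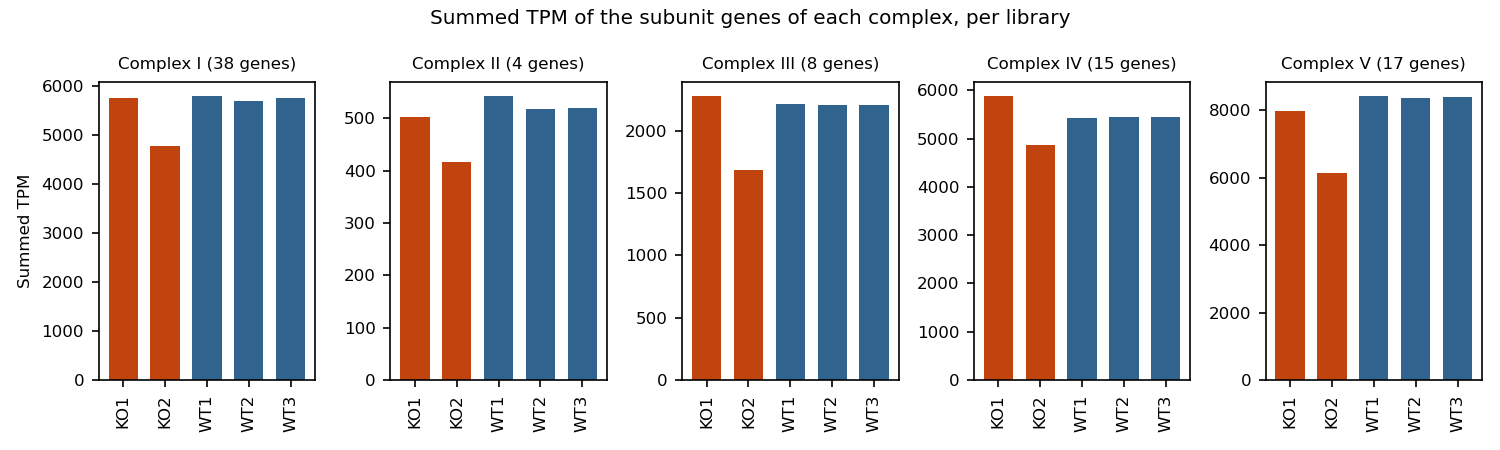
Bars give the summed TPM of the subunit genes of each complex in KO1, KO2, WT1, WT2 and WT3, with the y axis from 0 and its own scale in each panel. KO2 is the lowest bar in all 5 complexes, and KO1 is close to the WT bars.

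Summed over all 82 genes, the subunits made up 22400 and 17883 TPM in KO1 and KO2, against 22416, 22214 and 22319 TPM in WT1, WT2 and WT3. KO1 was within the WT range and KO2 was below it. Complex V summed to 7990 and 6131 TPM in KO1 and KO2, against 8434, 8358 and 8396 TPM in WT1, WT2 and WT3, the lowest ratio of KO2 to the WT mean among the complexes (0.730). Complex IV summed to 5886 and 4874 TPM in KO1 and KO2, against 5429, 5443 and 5447 TPM in WT1, WT2 and WT3, the highest such ratio (0.896). Complexes I, II and III had ratios of KO2 to WT of 0.831, 0.791 and 0.763, and the ratios of KO1 to WT ran between 0.952 and 1.08 over the 5 complexes.

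The subunit genes have short transcripts, with a median length of 744 bases, against 2701 bases for all tested genes with a length. Over the 4226 shortest genes of all those tested the median of KO2 minus KO1 was -0.01 on the log2 CPM scale, and over the 73 members among them it was -0.29. These shortest genes ran up to about 2045 bases, well above the members' median length. The Spearman rank correlation of the gap with length was 0.2 over the 78 members with a length and 0.01 over all genes. The part of length in the gap was not tested. Marker levels differed between KO1 and KO2 as well. Of the 10 smooth muscle and pericyte markers 9 were higher in KO1 than in KO2, with Acta2 at 1746 and 581.3 CPM in KO1 and KO2, against 229.9 to 262.4 CPM in WT. Notch3 was nearly level, at 70.5 and 66.5 CPM in KO1 and KO2, against 22.1 to 26.5 CPM in WT, and Cspg4 went the other way, at 25.8 and 44.7 CPM in KO1 and KO2, against 0.1935 to 0.2436 CPM in WT. KO1 was above KO2 for 12 of the 13 fibroblast markers and 10 of the 12 basal keratinocyte markers. The same held for 5 of 10 skeletal muscle markers and 1 of 2 male germ cell markers. It held for only 1 of 7 melanocyte, 2 of 7 adipocyte, 2 of 7 endothelial and 2 of 8 immune markers. These counts include markers with few reads that were below the count filter. The part of these markers in the gap was not tested.

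Other genes of the pathway were taken from lists of known assembly factors, carriers and neighbouring enzymes. Of 50 tested assembly factors 3 were higher, 10 were lower and 37 were not called, and the median log2 change was -0.19. That is 26% called in either direction, against 40.8% of all tested genes. Ndufaf2, the relative of Ndufa12, was among the lower ones, at 29.9 and 25.6 TPM in KO1 and KO2, against 47.1, 41.8 and 46.8 TPM in WT1, WT2 and WT3 (log2 change -0.63 ± 0.14 SE, adjusted p = 0.0221). Coa7, a factor for complex IV, stood at 1.96 and 3.30 TPM in KO1 and KO2, against 5.52, 5.13 and 5.59 TPM in WT1, WT2 and WT3 (log2 change -1.02 ± 0.25 SE, adjusted p = 0.0257). Both genes were below WT in each KO library. Without WT1, without WT2 or without WT3, 0 assembly factors were called in either direction by edgeR's test. In those fits 7.62% to 8.81% of all genes were higher and 7.6% to 8.94% were lower. By edgeR the full set of libraries gave 6 higher and 19 lower at an unadjusted p under 0.05 (25.8% and 25.5% of all genes). On that full set DESeq2 called 3 higher and 11 lower, and limma-voom with a separate spread per group 0 higher and 1 lower. KO2 was below KO1 in 28 of the 50 (56%), where the subunits had 87.3%.

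Of 4 tested subunits and carriers that the symbol rule leaves out, 3 were lower in KO and 1 was higher. Of all tested genes 20.4% were lower and 20.4% were higher. Cytochrome c, Cycs, stood at 84.2 and 71.6 TPM in KO1 and KO2, against 128, 125 and 131 TPM in WT1, WT2 and WT3 (log2 change -0.69 ± 0.10 SE, adjusted p = 0.00575). Cyc1, the cytochrome c1 of complex III, stood at 193 and 188 TPM in KO1 and KO2, against 261, 259 and 257 TPM in WT1, WT2 and WT3 (log2 change -0.42 ± 0.07 SE, adjusted p = 0.00747). Ndufab1, the acyl carrier subunit of complex I, stood at 231 and 217 TPM in KO1 and KO2, against 342, 343 and 335 TPM in WT1, WT2 and WT3 (log2 change -0.54 ± 0.07 SE, adjusted p = 0.00442). In all 3 genes both KO libraries were below WT. Without WT1 2 of the 3 kept their call, where 7.6% of all genes were lower. Atpif1, the inhibitor of ATP synthase reversal, was higher instead, at 229.9 and 191 TPM in KO1 and KO2, against 164, 171 and 175 TPM in WT1, WT2 and WT3 (log2 change 0.33 ± 0.10 SE, adjusted p = 0.0468), and its call was lost without any 1 of the WT libraries.

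Of 18 tricarboxylic acid cycle and pyruvate dehydrogenase genes 8 were lower, 10 were not called and 0 were higher by edgeR (0 at an unadjusted p under 0.05, and 0 by DESeq2). The 8 lower genes were 44.4% of the list, against 20.4% of all tested genes. The lower genes include Dlst (log2 change -0.48 ± 0.07 SE, adjusted p = 0.00566), Dlat (-0.47 ± 0.08 SE, adjusted p = 0.00973) and Dld (-0.43 ± 0.08 SE, adjusted p = 0.012), subunits of the 2-oxoglutarate and pyruvate dehydrogenase complexes. Dlst stood at 97.5 and 100.5 TPM in KO1 and KO2, against 140.3, 142 and 139 TPM in WT1, WT2 and WT3. The number of lower genes was 1, 2 and 1 without WT1, WT2 and WT3, where 7.6%, 8.94% and 8.77% of all genes were lower. Of 6 tested carriers and porins 3 were lower, the ADP/ATP carrier Slc25a5 (log2 change -0.61 ± 0.08 SE, adjusted p = 0.00542) and the outer membrane porins Vdac2 (-0.45 ± 0.08 SE, adjusted p = 0.00916) and Vdac3 (-0.46 ± 0.07 SE, adjusted p = 0.0074). Slc25a5 stood at 474 and 512 TPM in KO1 and KO2, against 775, 749 and 763 TPM in WT1, WT2 and WT3, with KO2 above KO1. The 3 lower ones were 50% of this short list, against 20.4% of all tested genes. The number of lower carriers and porins was 1, 3 and 2 without WT1, WT2 and WT3.

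**Figure D4:**
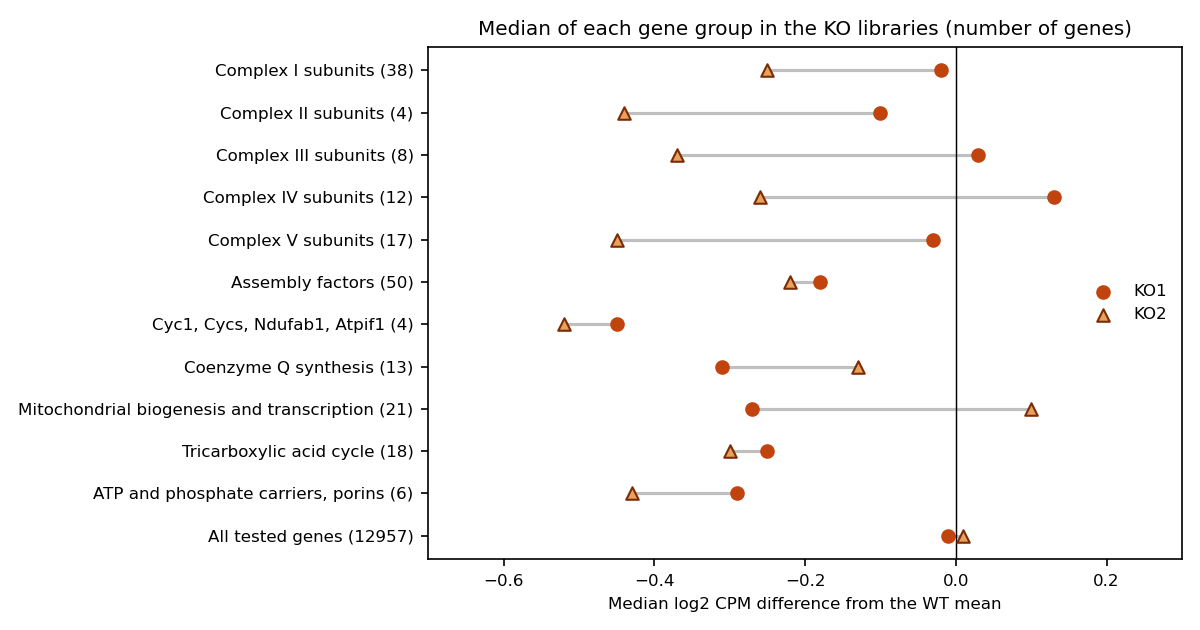
Points give the median, over the genes of each group, of the log2 CPM difference from the WT mean, as circles for KO1 and triangles for KO2, with the number of genes in parentheses. The 5 complexes have KO2 well to the left of KO1, at medians between -0.45 and -0.25, and all tested genes have both KO libraries near 0.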

How the data were processed

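The authors deposited 1 table of expected counts, TPM and FPKM per gene and library, and groups were taken from the library titles. Per the submitters' processing notes, these expected counts came from RSEM 1.3.1 on GRCm38.p6. TPM is named in the headers of the deposited table and is scaled within each library. RSEM splits reads that match several genes, so 32.1 to 34.0% of the deposited counts per library were not whole. The sources used here name neither the aligner nor the strand setting, and FPKM was not used. Members and gene lists were chosen with earlier results of these data known.

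Counts were rounded, filtered with filterByExpr by group, scaled with TMM factors and compared by the two-sided quasi-likelihood test of edgeR 4.0.16 (R 4.3.3), with no covariate. P-values were adjusted by Benjamini-Hochberg over all tested genes, with a threshold of 0.05. The code was first tested on simulated data. Described with full values are the called members, the member with the highest TPM of each complex, isoform families, the 5 members with the widest gap between KO1 and KO2, and list members with small p. One member is counted but not reported by name here. Other genes named were chosen after their values were seen. Alternatives were DESeq2 1.42.0 and its size factors, library totals, limma 3.58.1 voom with a spread per group, other count filters, leaving out each library, the replicate number as a block, and limma on log2(TPM + 1) and log2(TPM + 0.1). Counts of WT pairs deviated from sampling noise by a chi-square of 3.41 to 6.35 per degree of freedom, and those of the KO pair by 107, so no library was a copy. Transcript lengths and exon overlaps came from GENCODE annotation of GRCm38, and 24 members share exon bases with another gene.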

Additional observations from a re-analysis of the deposited data

How the results depend on the processing

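Over all genes the number higher was 1625 and the number lower 1567 with limma-voom and a spread per group, 804 and 794 with the replicate block, and 980 to 3975 and 977 to 4093 with 1 library left out. Of the members, 2 were higher and 0 lower with the replicate block (edgeR, 5 and 8 at an unadjusted p under 0.05, and DESeq2 without a block 6 and 12), 6 were lower with limma-voom, and 3 to 20 were higher and 1 to 56 lower with 1 library left out. The replicate numbers are not stated to pair samples, and deviations of same-numbered libraries correlated at 0.01 and 0.07. Limma on log2(TPM + 1) called 5 members higher and 14 lower, with the call of Ndufv3 lost. The median change kept its sign except without KO2 (-0.34 to 0.02 with 1 library left out). Cox4i1 was at 0.01 with library totals and 0.02 with the stricter filter. Without KO1 8 members, and without KO2 24, had the other sign. Among members described with full values, log2 changes crossed 0 with 1 library left out for Cox4i1 (-0.04 to 0.04), Atp5k (-0.98 to 0.05), Atp5mpl (-0.85 to 0.15), Cox6a1 (-0.06 to 0.33), Cox6b1 (-0.42 to 0.18), Cox7a2 (-0.74 to 0.11), Cox8a (-0.12 to 0.19), Ndufb4c (-0.58 to 0.30), Sdhc (-0.06 to 0.30), Uqcr11 (-0.40 to 0.17) and Uqcrh (-0.36 to 0.59). The cause was not tested. The other scalings and filters moved neither the number of members higher nor that lower by over 1.5 times, but with the stricter filter complex IV had 1 higher gene, against 2, as Cox6b2 was not tested. A lone KO library is taken to vary as much as the WT libraries. Depth limits Cox4i2, Cox6a2 and Cox7a1, which were not tested.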

Other observations

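Ubiquinone, the carrier between complexes I or II and complex III, is made in the inner membrane by a pathway of its own. Of 13 tested genes 3 were higher, 4 were lower and 6 were not called by edgeR's quasi-likelihood test, with a median log2 change of -0.16. That is 53.8% called in either direction, against 40.8% of all tested genes. Pdss1, a subunit of the enzyme that makes the side chain, stood at 2.67 and 2.76 TPM in KO1 and KO2, against 12.3, 12.7 and 13.4 TPM in WT1, WT2 and WT3 (log2 change -2.02 ± 0.14 SE, adjusted p = 0.00179). Coq8a, a kinase-like protein of the pathway, stood at 2.78 and 3.29 TPM in KO1 and KO2, against 0.53, 0.46 and 0.49 TPM in WT1, WT2 and WT3 (log2 change 2.57 ± 0.23 SE, adjusted p = 0.00263). Its relative Coq8b stood at 59.8 and 56.9 TPM in KO1 and KO2, against 30.5, 28.4 and 32.5 TPM in WT1, WT2 and WT3 (log2 change 0.95 ± 0.09 SE, adjusted p = 0.00263). In these 3 genes the KO libraries lay close together and apart from WT. Without WT1, without WT2 or without WT3, 2 genes of the list were higher and 2 lower. In those fits 7.62% to 8.81% of all genes were higher and 7.6% to 8.94% were lower.

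Of 21 tested genes for mitochondrial biogenesis and transcription 2 were higher, 3 were lower and 16 were not called. That is 23.8% called in either direction, against 40.8% of all tested genes. The nuclear receptor gene Esrra stood at 66.0 and 60.9 TPM in KO1 and KO2, against 43.9, 46.1 and 45.8 TPM in WT1, WT2 and WT3 (log2 change 0.50 ± 0.07 SE, adjusted p = 0.00567). Gabpa, which encodes the DNA-binding part of GABP, stood at 14.8 and 18.2 TPM in KO1 and KO2, against 24.7, 23.2 and 23.4 TPM in WT1, WT2 and WT3 (log2 change -0.51 ± 0.10 SE, adjusted p = 0.0143). Exons of Gabpa share 123 bases with those of Atp5j on the other strand. Without WT1, without WT2 or without WT3, 1 gene of this list was higher and 0 were lower by edgeR. In those fits 7.62% to 8.81% of all genes were higher and 7.6% to 8.94% were lower. By edgeR the full set of libraries gave 6 lower at an unadjusted p under 0.05 (25.5% of all genes were). On that full set DESeq2 called 3 lower and limma-voom with a separate spread per group 1.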
